A study of Mus musculus with 4 samples.

Results

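The genes described here are 8 of the 24421 in the count tables, chosen by name. They are Irg1, which makes itaconate, the arginine enzymes Nos2, Arg1, Arg2 and Ass1, the amino acid oxidising enzymes Ido1 and Il4i1, and the metabolite receptor gene Hcar2. The choice was made with their levels in omental tumor and spleen known, so that contrast is described for them and not tested. They were measured in regulatory T cells (Tregs) recovered from tumor-bearing CD45.1+ mice that had been joined by parabiosis, a surgical sharing of the circulation, to tumor-free CD45.1- partners for 14 days. The sorted cells came from the partner, of strain B6 Foxp3-DTR/GFP, whose Foxp3 reporter marks Tregs in green and also carries the diphtheria toxin receptor. They were gated as live, CD45.1-, CD45.2+, B220-, CD4+, CD25+ and Foxp3-GFP+. The omental tumors of 2 hosts, mouse 2 and mouse 3, gave 1 library each, and the spleens of the same 2 hosts gave 1 library each. The tumor cells were of the line EG7.1.15, injected into the peritoneal cavity of every host, and all samples were taken on day 14, so neither tissue comes from a tumor-free host.

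These enzymes are best known from macrophages, neutrophils and dendritic cells, where inflammatory signals switch them on. Irg1, now named Acod1, removes a carboxyl group of cis-aconitate in mitochondria to give itaconate, which inhibits succinate dehydrogenase. Nos2 turns arginine into nitric oxide and citrulline, and Ass1 and Asl rebuild arginine from that citrulline. Arginases cut arginine into urea and ornithine, the precursor of polyamines and proline. Ido1 opens the ring of tryptophan on the way to kynurenine, and Il4i1 is a secreted oxidase of phenylalanine and tryptophan. In tumors Nos2 and the arginases are known for using up arginine around T cells, and Ido1 for using up tryptophan.

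The sequence before the start site is shown for the members with an entry in the RefSeq promoter table (build GRCm38.p6), to set the most abundant member in omental tumor beside a pair that was hardly counted. The table matched 3 of the 8, and each line gives the 250 bases before the RefSeq start, 5′ to 3′. Capitals mark matches to any of the motifs searched on both strands, which were NF-kB (GGG, then NN, then TTTCC), GAS (TTCNNNGAA), the ISRE core (GAAA, then NN, then GAAA), C/EBP (TTGCNNAA) and the TATA box (TATAAA). N stands for any base, and none of these motifs contains another.
Irg1, chr14:103046762-103047011, plus strand: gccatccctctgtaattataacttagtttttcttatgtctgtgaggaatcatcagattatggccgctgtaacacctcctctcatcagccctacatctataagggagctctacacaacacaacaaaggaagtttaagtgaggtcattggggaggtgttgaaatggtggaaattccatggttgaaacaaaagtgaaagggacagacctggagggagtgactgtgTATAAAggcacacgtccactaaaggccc
Ass1, chr2:31470020-31470269, plus strand: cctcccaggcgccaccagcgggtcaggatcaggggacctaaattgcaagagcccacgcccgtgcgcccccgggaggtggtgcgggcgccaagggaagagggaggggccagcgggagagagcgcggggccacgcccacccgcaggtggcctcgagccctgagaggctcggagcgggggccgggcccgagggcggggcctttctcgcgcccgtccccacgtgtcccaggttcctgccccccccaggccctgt
Il4i1, chr7:44836038-44836287, plus strand: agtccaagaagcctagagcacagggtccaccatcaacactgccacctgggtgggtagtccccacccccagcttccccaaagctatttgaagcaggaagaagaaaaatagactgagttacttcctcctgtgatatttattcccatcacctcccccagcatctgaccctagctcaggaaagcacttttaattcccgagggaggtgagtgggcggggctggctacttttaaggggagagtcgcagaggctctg
The Irg1 window held 1 match, the TATA box letters from 28 to 23 bases before the RefSeq start. In all 3 cases that start lies inside the gene as GENCODE vM21 places it, so the windows of Irg1 and Ass1 reach into the GENCODE gene and that of Il4i1 lies wholly within it. The windows of Ass1 and Il4i1 held none. Over 32851 promoter windows of the same length, 12.4% held the TATA box letters, 1.41% the NF-kB motif, 7.02% GAS, 2.98% the ISRE core and 9.56% C/EBP, so a window without a match is common. The Irg1 window was 44.4% G or C, against 75.6% for Ass1 and 53.2% for Il4i1.

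The libraries held 6660230 and 3764508 counts in genes for the omental tumors of mouse 2 and mouse 3, and 9989005 and 13598631 for their spleens. Levels are given as CPM, a gene's counts times 1000000 over the library's gene total multiplied by its TMM factor. A single read was worth 0.131 and 0.253 CPM in the omental libraries and 0.0979 and 0.0915 CPM in the spleen libraries. The T cell and Treg markers chosen to check the sort were present in every library. Their summed level was 6010 and 6290 CPM in omental tumor against 6760 and 11000 CPM in spleen. The markers did not move alike, and only Ctla4 was higher by log2 fold change, at 1239 and 1290 CPM against 391 and 764 CPM. Cd4, part of the sort gate, had 376 and 114 CPM in omental tumor against 568 and 1008 CPM in spleen. Of the 12 markers, 0 were called in either direction in the edgeR fit over all genes. Foxp3, the lineage factor, averaged 82.8 ± 2.07 CPM in omental tumor, against 129 ± 22.3 CPM in spleen (SD, n = 2 each). In these sorted bulk samples, more cells of a type and more RNA per cell cannot be told apart.

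Irg1 showed the widest gap between the tissues of any gene tested, on chromosome 14 from 103046977 to 103056573 (GENCODE vM21, mm10). Its counts were 1686 and 5824 in the omental libraries of mouse 2 and mouse 3, against 3 and 6 in the spleen libraries. That is 221 and 1474 CPM in omental tumor against 0.294 and 0.549 CPM in spleen. Both omental libraries stood far above both spleen libraries, and the omental library of mouse 3 stood above that of mouse 2. Within mouse 2 the ratio of omental tumor to spleen was 754, with an exact 95% interval for counting error alone from 258 to 3660. Within mouse 3 it was 2690 (1230 to 7320), and brackets after later ratios hold the same kind of interval. The all-gene fit gave a log2 fold change of 10.92, which was 8.90 without the omental library of mouse 3 and at most 11.88 without any other. On library gene totals with no TMM factor the levels were 253 and 1547 CPM in omental tumor against 0.300 and 0.441 CPM in spleen.

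**Figure D1:**
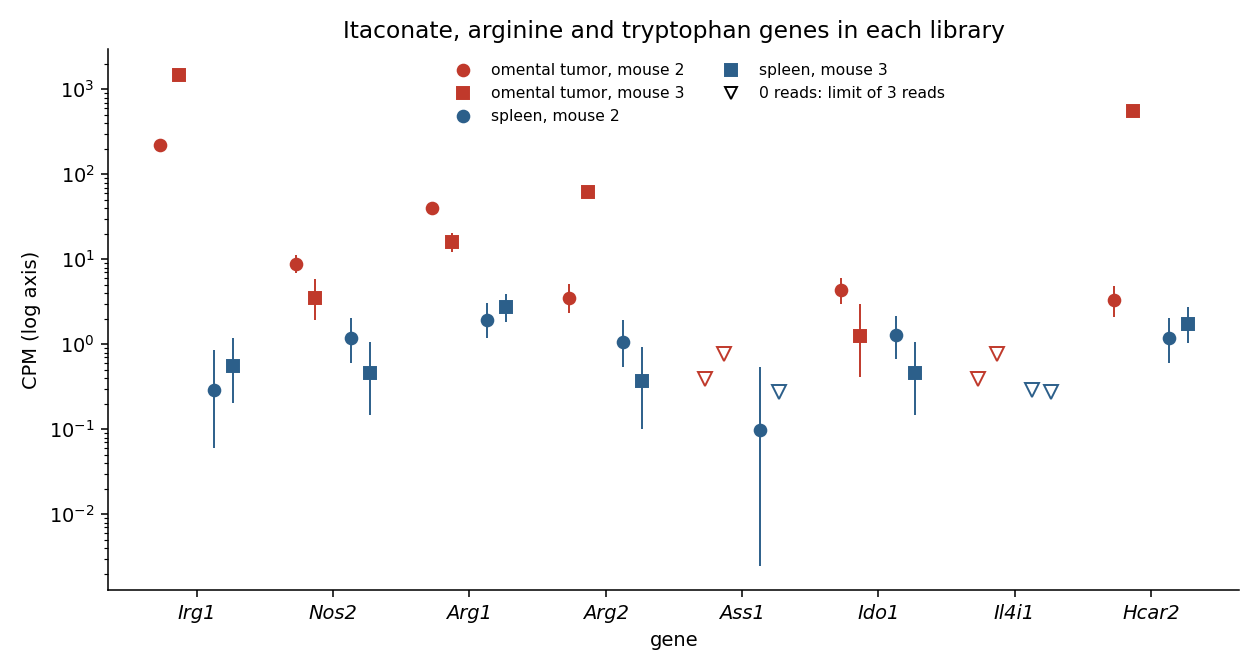
CPM on a log axis for the 8 genes in each library, omental tumor in red left of spleen in blue, circles for mouse 2 and squares for mouse 3. Bars are exact 95% Poisson intervals of counting error, open triangles mark libraries with 0 reads at the level 3 reads would give, and Irg1 stands at 221 and 1474 CPM in omental tumor above 0.294 and 0.549 CPM in spleen.

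Arg1, the cytosolic arginase of the liver and of alternatively activated macrophages, lies on chromosome 10 from 24915221 to 24927484. It had 309 and 63 counts in the omental libraries of mouse 2 and mouse 3, against 20 and 30 in the spleen libraries. The levels were 40.6 and 15.9 CPM in omental tumor against 1.96 and 2.75 CPM in spleen, so the groups did not overlap. Here the library of mouse 2 was the higher of the omental pair. The ratio of omental tumor to spleen was 20.7 in mouse 2 (13.2 to 34.4) and 5.81 in mouse 3 (3.71 to 9.30), intervals that do not overlap. The fitted log2 fold change was 3.58 and lay between 2.74 and 4.01 when any single library was left out.

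Arg2, the mitochondrial arginase, lies on chromosome 12 from 79130777 to 79156301 and was arranged the other way round. It had 27 and 247 counts in omental tumor, against 11 and 4 in spleen. The levels were 3.54 and 62.5 CPM in omental tumor against 1.08 and 0.366 CPM in spleen. The omental library of mouse 3 alone stood far above the rest, and that of mouse 2 lay just above the spleen library of the same mouse. The ratio within mouse 2 was 3.29 (1.58 to 7.36) and within mouse 3 it was 171 (65.9 to 632). The log2 fold change of 5.49 became 2.20 without the omental library of mouse 3, and it was 4.43 with the mouse as a block. In GENCODE vM21, 401 of the 1428 exon bases of Arg2 (28.1%) overlap Vti1b and an antisense transcript on the opposite strand. The library kits do not mark strand, so reads of Arg2 and of these genes cannot be told apart there. Between the omental libraries Arg1 was 0.393 times as high in mouse 3 as in mouse 2 (0.295 to 0.517), and Arg2 was 17.6 times as high (11.8 to 27.3).

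Per kilobase of annotated exon, Arg1 was the more abundant arginase in the omental library of mouse 2, at 18.2 CPM per kb for Arg1 and 2.48 for Arg2. In the omental library of mouse 3 the order was reversed, with 7.16 for Arg1 and 43.8 for Arg2. In spleen the Arg1 values were 0.878 and 1.23 CPM per kb and the Arg2 values 0.754 and 0.256. Irg1 led every other member in both omental libraries on the same scale, at 84.4 and 562 CPM per kb.

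Nos2, the inducible nitric oxide synthase (chromosome 11, 78920787 to 78960254), was counted at a low level throughout. The omental libraries held 67 and 14 counts and the spleen libraries 12 and 5, or 8.79 and 3.54 CPM against 1.17 and 0.458 CPM. Both omental libraries exceeded both spleen libraries, and in each tissue the library of mouse 2 was the higher. In spleen the ratio of mouse 3 to mouse 2 was 0.39 (0.108 to 1.19), which spans equal levels. The ratio was nearly alike in the mice, at 7.49 in mouse 2 (4.02 to 15.2) and 7.75 in mouse 3 (2.64 to 27.5). The fitted log2 fold change was 2.91, and it ran from 2.09 to 3.66 over the libraries left out in turn. On the scale per kilobase Nos2 stood at 1.99 and 0.803 CPM per kb in omental tumor, below Arg1 in both libraries.

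Ass1, argininosuccinate synthase (chromosome 2, 31470207 to 31520672), which rebuilds arginine from citrulline, was hardly counted in any library. The omental libraries held 0 and 0 counts and the spleen libraries 1 and 0. In the omental libraries 0 counts allow a level of up to 0.394 and 0.760 CPM, by the limit of 3 reads, so no difference between tissues was detectable. Its partner in that cycle, the argininosuccinate lyase gene Asl, was counted in all libraries, at 32.7 and 21.3 CPM in omental tumor against 46.1 and 65.9 CPM in spleen (log2 fold change -1.05, adjusted p = 0.738 in edgeR's quasi-likelihood test). Asl was named after its values were seen.

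Of the amino acid oxidising enzymes, Ido1, the indoleamine dioxygenase of dendritic cells and macrophages (chromosome 8, 24584136 to 24597009), had few reads. The omental libraries held 33 and 5 counts and the spleen libraries 13 and 5. The levels were 4.33 and 1.27 CPM in omental tumor against 1.27 and 0.458 CPM in spleen. The omental library of mouse 3 lay level with the spleen library of mouse 2, so only that of mouse 2 stood apart. The ratio was 3.41 in mouse 2 (1.75 to 7.05) and 2.77 in mouse 3 (0.637 to 12), an interval that spans equal levels. The fitted log2 fold change of 1.70 lay between 0.54 and 2.54 over the libraries left out. Il4i1 (chromosome 7, 44816387 to 44840809) had 0 counts in all 4 libraries. For reads that could be assigned, this allows up to 0.394 and 0.760 CPM in omental tumor, against 0.294 and 0.275 CPM in spleen. In GENCODE vM21, 3520 of its 4080 exon bases (86.3%) overlap exons of Nup62, Tbc1d17 or Atf5, and the part of that overlap in the 0 counts was not tested.

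Nos2 and Ido1 were low in all libraries, and in each tissue both had their higher level in mouse 2. In spleen that order rests on 12 and 5 reads of Nos2 and 13 and 5 reads of Ido1. The spleen ratios of mouse 3 to mouse 2, 0.39 (0.108 to 1.19) and 0.36 (0.1 to 1.07), span equal levels. Entries outside annotated genes were also more frequent in the mouse 2 libraries, at 48.9% of the omental and 44.2% of the spleen entries, than in those of mouse 3, at 27.3% and 24.8%. The liver enzyme genes Otc and Tdo2, named after their values were seen, had the same arrangement. Otc had 4.2 and 1.01 CPM in omental tumor against 2.54 and 0.549 CPM in spleen, and Tdo2 had 12.9 and 5.32 CPM against 9.0 and 5.03 CPM. Their ratios of omental tumor to spleen within mouse 2 were 1.65 (0.953 to 2.88) and 1.43 (1.06 to 1.92). Those of Nos2 and Ido1 were 7.49 (4.02 to 15.2) and 3.41 (1.75 to 7.05). Within mouse 3 the ratios of Otc and Tdo2 were 1.84 (0.383 to 7.78) and 1.06 (0.607 to 1.78). Ido2 and Kmo, also named after their values were seen, were higher in mouse 2 in both tissues too. Within mouse 2 their ratios were 2.49 (1.74 to 3.6) and 2.42 (1.82 to 3.24). Within mouse 3 they were 6.09 (1.95 to 22.3) and 0.728 (0.324 to 1.49). Of the 16322 genes tested, 6647 were higher in mouse 2 than in mouse 3 in both tissues, so the arrangement is common. The part of the entries outside annotated genes in the levels of Nos2 and Ido1 was not tested.

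Hcar2 (chromosome 5, 123863570 to 123865499), which encodes a receptor for niacin and the ketone body beta-hydroxybutyrate found on neutrophils, macrophages and fat cells, was the member that differed most between the omental libraries. The omental libraries held 25 and 2188 counts and the spleen libraries 12 and 19. The levels were 3.28 and 554 CPM in omental tumor against 1.17 and 1.74 CPM in spleen. The library of mouse 3 stood alone, and that of mouse 2 was above spleen by a few reads. The ratio was 2.79 in mouse 2 (1.35 to 6.11) and 319 in mouse 3 (204 to 530). Its log2 fold change of 7.56 was 1.08 without the omental library of mouse 3 and 5.06 with the mouse as a block. Hcar1, the neighbouring lactate receptor gene, had 0 counts in all 4 libraries.

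**Figure D2:**
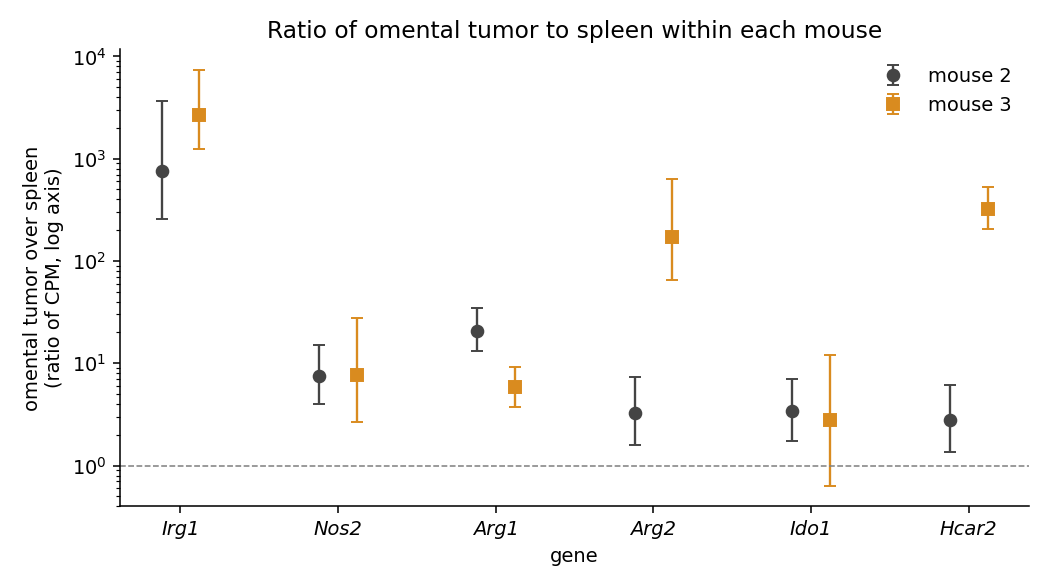
Ratio of CPM in omental tumor to CPM in spleen within mouse 2 (circles) and mouse 3 (squares) on a log axis, with exact 95% intervals for counting error; the dashed line marks equal levels. The intervals of Arg2 and Hcar2 are apart between the mice, at 3.29 against 171 and 2.79 against 319 for mouse 2 against mouse 3, while those of Nos2 overlap.

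Of the 8 genes, 6 passed the filter on low counts, and Ass1 and Il4i1 did not. In edgeR's quasi-likelihood fit over all genes, 178 of 16322 (1.09%) were called higher in omental tumor and 37 (0.227%) lower. Irg1, Arg1, Arg2 and Hcar2 were among the 178, which follows from how the genes were chosen and is given as a description. With the mouse as a block 241 genes (1.48%) were called higher and 67 (0.41%) lower, and Nos2 was among the 241 too. Irg1 stayed called without any single library. Arg1 stayed called only when the left-out library was the omental one of mouse 3, and Hcar2 was lost in that case alone. Arg2 was lost on dropping either the mouse 3 omental or the mouse 2 spleen library. On library gene totals alone only Irg1 of the members was called.

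The members fell into sets by which of the omental libraries was the higher, though all members tested stood above spleen in both mice. Of these ratios to spleen, only that of Ido1 in mouse 3 had an interval that spans equal levels (0.637 to 12). Arg2 and Hcar2 exceeded spleen by few reads in mouse 2, at 3.29 (1.58 to 7.36) and 2.79 times (1.35 to 6.11). Irg1, Arg2 and Hcar2 were higher in the omental library of mouse 3 than in that of mouse 2, by 6.66 times (6.31 to 7.04), 17.6 times (11.8 to 27.3) and 169 times (114 to 261). Nos2, Arg1 and Ido1 were lower in mouse 3, at 0.403 (0.209 to 0.724), 0.393 (0.295 to 0.517) and 0.292 times (0.0891 to 0.753) the level in mouse 2. In omental tumor the SD between the mice exceeded the mean for Irg1 (848 ± 886 CPM), Arg2 (33 ± 41.7 CPM) and Hcar2 (279 ± 389 CPM), but not for Arg1 (28.3 ± 17.4 CPM), Nos2 (6.17 ± 3.71 CPM) or Ido1 (2.80 ± 2.17 CPM; SD, n = 2 each). Of all genes tested, 337 (2.06%) were over 5 times higher in the omental library of mouse 3 and 673 (4.12%) over 5 times higher in that of mouse 2. Only 1.44% of genes had a larger ratio of mouse 3 to mouse 2 than Irg1, 0.386% than Arg2 and 0.0245% than Hcar2. Against that, 25% had a smaller ratio than Arg1, 28.9% than Nos2 and 20.7% than Ido1, so their ratios were common ones.

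**Figure D3:**
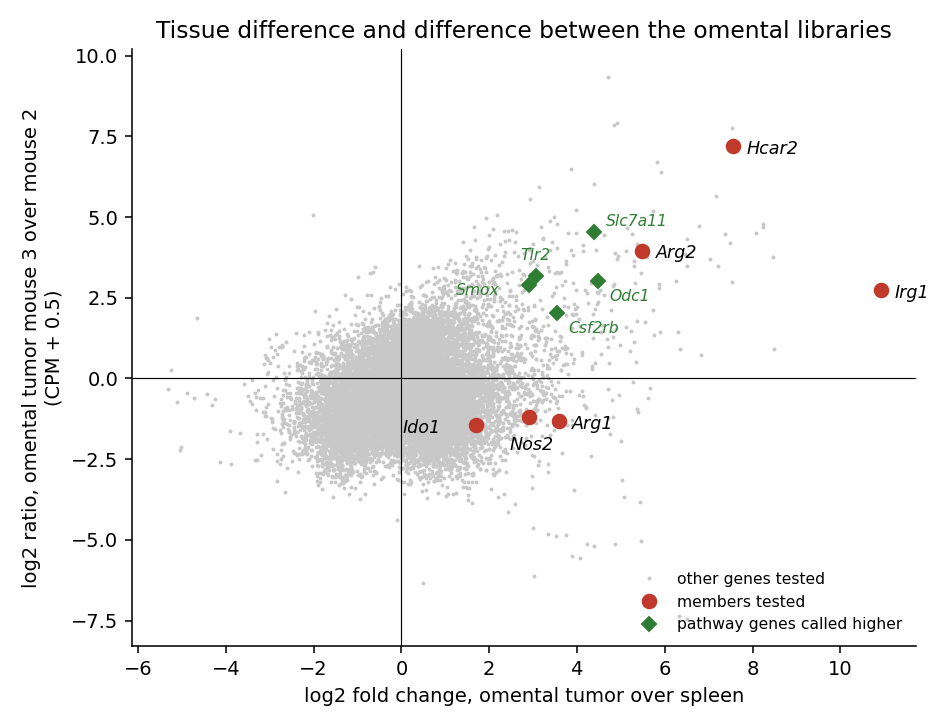
Each grey point is a tested gene, by its log2 fold change of omental tumor over spleen (horizontal) and the log2 ratio of the omental libraries of mouse 3 over mouse 2, CPM + 0.5 (vertical); red circles are the members tested and green diamonds the related pathway genes called higher. Irg1, Arg2 and Hcar2 lie above the horizontal line with all 5 pathway genes, and Arg1, Nos2 and Ido1 below it.

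Likeness over the 4 libraries was measured as the root mean square difference in log2(CPM + 0.5) after centring each gene, with 0 for the same profile. Among the members the nearest pairs were Nos2 with Ido1 (0.563), Nos2 with Arg1 (0.631) and Arg1 with Ido1 (1.12), followed by Arg2 with Hcar2 (1.29). Irg1 had no near neighbour among the members, the smallest difference being 2.83 to Arg2. Over all genes tested, Irg1 was nearest to the neutrophil-attracting chemokine gene Cxcl2 (1.21), to Areg, an epidermal growth factor family ligand (1.42), and to the interleukin-1 beta gene Il1b (1.56). Cxcl2 had 49.8 and 680 CPM in omental tumor against 0.294 and 1.74 CPM in spleen, and like Irg1 it was lowest in the spleen library of mouse 2. For Irg1 that order rests on 3 and 6 reads, a ratio of mouse 3 to mouse 2 of 1.87 (0.399 to 11.6), which spans equal levels. Nos2 was nearest to Dscaml1 (0.0718), Spire1 (0.101) and Tnfaip3 (0.115), the last a feedback inhibitor of NF-kB signalling. Arg1 was nearest to Pcsk1 (0.212), a prohormone-cutting protease, and then to Calca (0.265) and Tex19.2 (0.299). Hcar2 was nearest to the interferon-induced gene Rsad2 (0.586), to Cyp4f18, a leukotriene-clearing enzyme of neutrophils (0.604), and to the chemokine gene Ccl4 (0.761). Rsad2 had 20.5 and 2176 CPM in omental tumor against 15.9 and 22.8 CPM in spleen, so it too was high in 1 library. With 4 libraries many genes share a profile, and these values only describe them.

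Most genes around these enzymes were not called, which with 2 mice does not show that their levels were alike. Of 98 related pathway genes tested, of 112 listed in 7 groups, 5 rose in omental tumor and 0 fell in edgeR's quasi-likelihood test (10 and 2 at an unadjusted p under 0.05, 6 and 1 called in DESeq2). That is 5.10% called in edgeR, against 1.32% of all genes in either direction. Over all 16322 genes tested, 678 were higher and 792 lower at an unadjusted p under 0.05 in edgeR. DESeq2 called 210 higher and 153 lower of 14172. The median log2 fold change of the pathway genes was 0.03, against 0.11 over all genes. All 5 pathway genes called in edgeR were highest in the omental library of mouse 3. That library also held the most neutrophil marker reads (1460 CPM, against 147 CPM in that of mouse 2), whose part in these calls was not tested.

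Enzymes of the citric acid cycle around aconitate and succinate, the source and the target of itaconate, gave 0 calls among 17 tested in edgeR, 0 at an unadjusted p under 0.05 and 0 in DESeq2. Their median log2 fold change was -0.45 and 3 of 17 values were positive. Cs, citrate synthase, stood at 273 and 121 CPM in omental tumor against 313 and 528 CPM in spleen (-1.09, adjusted p = 0.756 in edgeR's quasi-likelihood test). Sdha, the catalytic subunit of succinate dehydrogenase, stood at 481 and 183 CPM against 561 and 894 CPM (-1.13, adjusted p = 0.756 in the same edgeR test). For Sdhb, its iron-sulfur subunit, the log2 fold change was 0.28 (adjusted p = 0.930 in edgeR). For Cs and Sdha both omental values lay below both spleen values, and for Sdhb, at 220 and 422 CPM against 189 and 340 CPM, the tissues overlapped.

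Nitric oxide synthesis and response genes likewise gave 0 calls among 16 tested (0 at an unadjusted p under 0.05 in edgeR and 0 in DESeq2), with a median of 0.42. The arginine carrier gene Slc7a1 stood at 68.8 and 138 CPM in omental tumor against 38.6 and 57.7 CPM in spleen (log2 fold change 1.10, adjusted p = 0.723 in edgeR). Pts, an enzyme of the tetrahydrobiopterin cofactor, gave -0.56 and Nosip, a protein that binds nitric oxide synthases, gave -1.21, both short of the threshold.

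Downstream of the arginases, the first enzyme of polyamine synthesis rose. Odc1, ornithine decarboxylase (chromosome 12, 17544794 to 17551505), had 726 and 3055 counts in omental tumor, against 157 and 259 in spleen. The levels were 95.3 and 773 CPM in omental tumor against 15.4 and 23.7 CPM in spleen, with no overlap. The log2 fold change was 4.47 (SE 0.945, adjusted p = 0.000527 in edgeR's quasi-likelihood test) and the ratio was 6.20 within mouse 2 (5.21 to 7.42). It stayed past the threshold with the mouse as a block (3.83, adjusted p = 0.0127 in edgeR). Leaving out the mouse 3 omental library gave 2.20 (adjusted p = 0.541), and leaving out the spleen library of mouse 2 or of mouse 3 gave 4.14 or 5.30 (adjusted p = 0.474 or 0.268).

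Smox, spermine oxidase, which breaks polyamines down again, rose as well (chromosome 2, 131491496 to 131525922). It stood at 33.9 and 255 CPM in omental tumor against 22.0 and 16.2 CPM in spleen. Its log2 fold change was 2.92 (SE 0.826, adjusted p = 0.0352 in edgeR), with a ratio within mouse 2 of only 1.54 (1.28 to 1.85). With the mouse as a block it was 2.30 (adjusted p = 0.228 in edgeR). Leaving out the mouse 3 omental library gave 0.74 (adjusted p = 0.936), and leaving out the spleen library of mouse 2 gave 3.10 (adjusted p = 0.580) and that of mouse 3 gave 3.19 (0.704). Of the 17 genes tested in the ornithine, polyamine and proline group, these 2 were the calls and the median was -0.02. Its most abundant other members, the spermidine acetylase gene Sat1 and the antizyme inhibitor gene Azin1, gave -0.20 and -0.72 (adjusted p = 0.950 and 0.827 in edgeR).

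The kynurenine and aryl hydrocarbon receptor genes gave 0 calls among 18 tested in edgeR (0 higher and 1 lower at an unadjusted p under 0.05, 0 and 1 in DESeq2), with a median of 0.50. The single gene was Qprt, quinolinate phosphoribosyltransferase, at the end of the kynurenine route to NAD, named after its values were seen. It stood at 3.94 and 2.53 CPM in omental tumor against 24.1 and 25.2 CPM in spleen, so the groups were far apart and each pair was close. Its log2 fold change of -2.91 had an adjusted p = 0.0976 in edgeR's quasi-likelihood test, which was 0.0248 with the mouse as a block and 0.00930 in DESeq2. The most abundant members were the mitochondrial aspartate aminotransferase gene Got2 (-0.36), the tryptophanyl-tRNA synthetase gene Wars (-1.14) and Arnt (-1.16), the partner of the aryl hydrocarbon receptor, all short of the threshold.

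Of 13 other metabolite receptor genes, 6 were counted well enough to test and 0 were called in edgeR (1 higher and 0 lower at an unadjusted p under 0.05, 0 in DESeq2), with a median log2 fold change of 1.0. Among the most abundant were the receptor genes Gpr65 (0.99) and Gpr132 (0.54). The receptor gene at an unadjusted p under 0.05 was Gpr35, named after its values were seen. It stood at 8.53 and 48.1 CPM in omental tumor against 3.23 and 5.95 CPM in spleen (2.61, adjusted p = 0.138 in edgeR). Its ratio was 2.64 within mouse 2 (1.71 to 4.15) and 8.09 within mouse 3 (6.07 to 10.9). No receptor of this group was called, which with 6 genes tested does not show that Hcar2 stood apart.

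Among 16 receptors and signalling genes upstream of these enzymes, 2 rose and 0 fell in edgeR (4 and 1 at an unadjusted p under 0.05, 2 and 0 in DESeq2). Csf2rb, the shared receptor chain for GM-CSF, interleukin-3 and interleukin-5, stood at 26.4 and 108 CPM in omental tumor against 6.95 and 4.58 CPM in spleen (log2 fold change 3.54, SE 0.841, adjusted p = 0.00383 in edgeR). With the mouse as a block it was 3.24 (adjusted p = 0.0300). Tlr2, a receptor for bacterial lipoproteins, stood at 21.5 and 199 CPM in omental tumor against 7.14 and 19.0 CPM in spleen (3.07, SE 0.821, adjusted p = 0.0182 in edgeR). With the mouse as a block it was 2.50 (adjusted p = 0.125), and in DESeq2 its adjusted p was 0.0647. Leaving out the mouse 3 omental library gave log2 fold changes of 2.11 for Csf2rb and 0.62 for Tlr2, each with an adjusted p of 0.936. On leaving out the spleen library of mouse 2, Csf2rb was 3.81 (adjusted p = 0.453 in edgeR) and Tlr2 2.48 (0.581). On leaving out that of mouse 3 they were 3.70 (0.331) and 4.43 (0.199). Ifngr1, a chain of the interferon gamma receptor, and the kinase gene Jak1 were among the most abundant of the group and were not called, at 0.83 and -1.24.

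Of the 8 genes that answer amino acid shortage, Slc7a11, the cystine importer, rose and 0 fell in edgeR (2 and 0 at an unadjusted p under 0.05, 2 and 0 in DESeq2). It stood at 6.69 and 167 CPM in omental tumor against 4.70 and 3.57 CPM in spleen (4.38, SE 0.872, adjusted p = 0.000141 in edgeR). Its ratio within mouse 2 was 1.43 (0.942 to 2.16), and the block gave 3.05 (adjusted p = 0.128). Leaving out the mouse 3 omental library gave 0.61 (adjusted p = 0.938), and leaving out the spleen library of mouse 2 gave 4.54 (adjusted p = 0.291) and that of mouse 3 gave 4.71 (0.126). Asns, asparagine synthetase, was high in both omental libraries, at 260 and 398 CPM against 46.8 and 46.9 CPM in spleen. Between the omental libraries it was 1.53 times as high in mouse 3 as in mouse 2 (1.43 to 1.63). It missed the threshold (2.81, adjusted p = 0.0753 in edgeR's quasi-likelihood test, 0.00533 in DESeq2). Its log2 fold change ran from 2.38 to 3.14 over the libraries left out in turn. Atf4, the transcription factor of that response, gave 0.28 (adjusted p = 0.926 in edgeR).

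**Figure D4:**
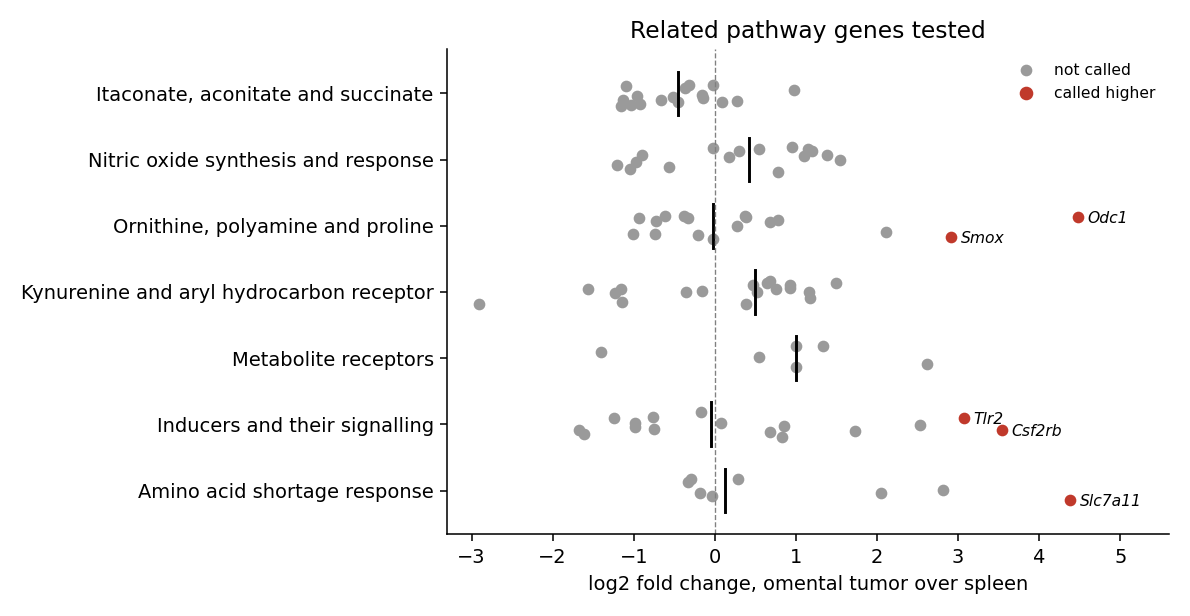
Log2 fold change of omental tumor over spleen for the 98 related pathway genes tested, 1 row per group, with a black bar at the median of each group and red points for genes called higher at an adjusted p of 0.05 in edgeR. The 5 called genes are Odc1, Smox, Tlr2, Csf2rb and Slc7a11, and no group has its median past 1.0.

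Marker genes of other leukocytes were present in these sorted libraries and moved with part of the members. Of 8 neutrophil markers found in the files, 7 were tested and 4 were called higher. Their summed level was 147 and 1460 CPM in the omental libraries of mouse 2 and mouse 3 against 94.9 and 64.3 CPM in spleen. The calgranulin gene S100a9 had 1.57 and 475 CPM in omental tumor against 9.10 and 7.5 CPM in spleen. Its partner S100a8 had 0.131 and 412 CPM in omental tumor against 6.26 and 9.52 CPM in spleen. In mouse 2 both were lower in the omental library than in spleen, while the other 5 neutrophil markers tested were higher there. Mmp9, the gelatinase of neutrophil granules, had 37.8 and 68.1 CPM in omental tumor against 5.87 and 13.6 CPM in spleen, and was named after its values were seen. Arg2 and Hcar2 were high only in the library in which the calgranulins were high, and the part of neutrophil RNA in the levels of any member was not tested.

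Of 13 macrophage and monocyte markers in the files, 12 were tested and 2 were called higher, with summed levels of 520 and 881 CPM in omental tumor against 233 and 461 CPM in spleen. Lyz2, lysozyme, stood at 250 and 297 CPM in omental tumor against 6.85 and 61.8 CPM in spleen, and Cd14, the endotoxin co-receptor, at 23.8 and 273 CPM against 2.64 and 4.85 CPM. The defining receptor gene Csf1r was lower in omental tumor, at 38.7 and 14.4 CPM against 69.9 and 110 CPM, short of the threshold (log2 fold change -1.75, adjusted p = 0.437 in edgeR). Adgre1, Mrc1, C1qa, C1qb and C1qc also had negative log2 fold changes (-0.85, -1.40, -0.89, -0.34 and -0.52), none of them called. Those of Itgam, Cd68, Fcgr1 and Marco were positive (2.20, 1.07, 2.74 and 0.89) and not called either. Lyz2 was high in both omental libraries, as Irg1 and Arg1 were, but the list as a whole was mixed. The part of macrophage RNA in the levels of Irg1 and Arg1 was not tested. Dendritic cell markers summed to 109 and 49.6 CPM in omental tumor against 39.6 and 16.9 CPM in spleen, led by Xcr1 and Cd209a, with 0 of 7 tested called in edgeR. Fibroblast markers were high in the omental library of mouse 2 alone, at 170 and 13.9 CPM against 12.8 and 6.50 CPM in spleen, with 1 of 5 tested called, Col3a1. B cell markers summed to 78.6 and 23.8 CPM in omental tumor against 46.9 and 49.7 CPM in spleen, led by Cd79b and Ms4a1. Mast cell and basophil markers summed to 42.8 and 14.9 CPM against 31.1 and 10.5 CPM, led by Ms4a2 and Kit, and mesothelial markers, led by Lrrn4 and Msln, to 13.4 and 2.53 CPM against 4.50 and 1.01 CPM. No marker in any list was at 0 in all 4 libraries. Dendritic cell, fibroblast, B cell, mast cell and basophil, and mesothelial sums were thus all higher in the omental library of mouse 2 than of mouse 3. Nos2, Arg1 and Ido1 had the same order. Not every marker followed its sum, as Zbtb46 (9.19 and 11.9 CPM) and Itgax (7.2 and 8.4 CPM) of the dendritic list were higher in mouse 3. The part of any of these cell types in the levels of Nos2, Arg1 and Ido1 was not tested.

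**Figure D5:**
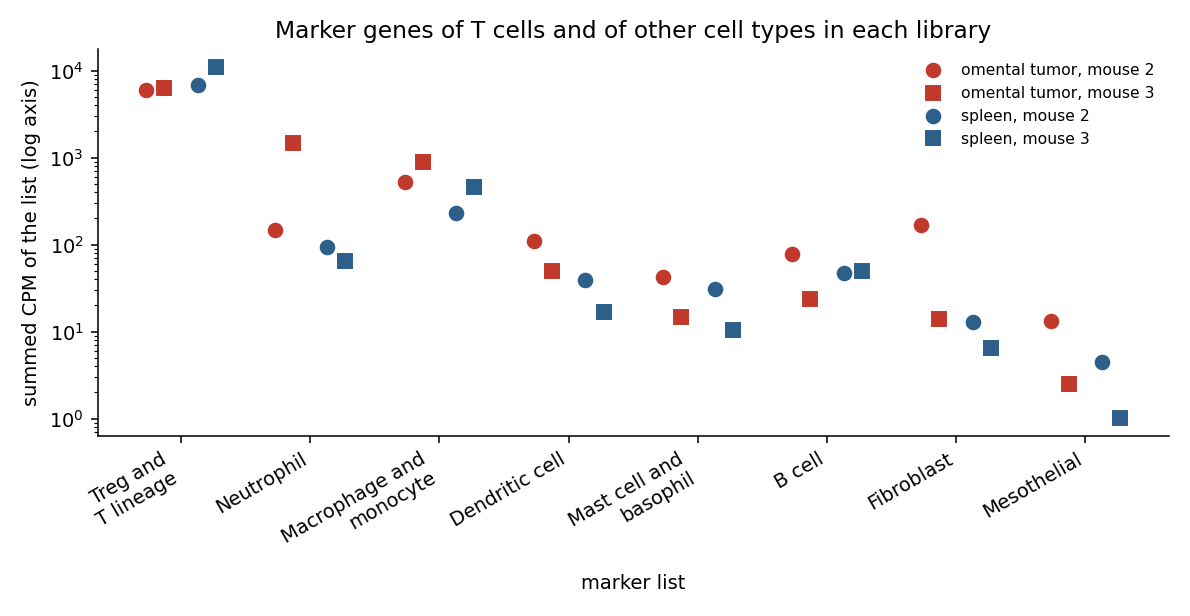
Summed CPM on a log axis of each marker list in each library, omental tumor in red left of spleen in blue, circles for mouse 2 and squares for mouse 3. Neutrophil markers reach 1460 CPM in the omental library of mouse 3 against 147 CPM in that of mouse 2, and fibroblast markers reach 170 CPM in the omental library of mouse 2 against 13.9 CPM in that of mouse 3.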

How the data were processed

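The deposited files hold whole-number counts per gene symbol, 1 file a library. The submitters' processing notes name build mm10 and the tools HTSeq, TopHat2, Trim Galore and SAMtools. Tool versions, the annotation and strand handling were not given in the sources used here. Per the labels' protocols, SMART-seq v4 cDNA was tagmented with Nextera XT. The 5 HTSeq summary entries that name no gene (all entries outside genes, ambiguous or not unique, leaving 17.1% and 22.2% in genes for omental tumor and 24.9% and 46.0% for spleen) entered neither library sizes nor tests.

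The fit over all genes used edgeR 4.0.16 under R 4.3.3: filterByExpr at a minimum count of 10, TMM, and the quasi-likelihood test (glmQLFit, glmQLFTest, default settings) on tissue alone, with Benjamini-Hochberg adjustment at 0.05 over all genes tested. Where no other tool is named, an adjusted p is from this test. The prior degrees of freedom were infinite, so SE and p do not measure a gene's own spread between mice. Ratios within a mouse carry exact conditional binomial 95% intervals, levels exact Poisson intervals, and 0 counts a limit of 3 reads, which all cover counting error only.

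On simulated data the test missed most changes of moderate size, so a gene or group without a call is not shown to be equal between the tissues. Same-numbered libraries come from the same mouse, and deviations from the tissue means correlated at 0.206, so the mouse as a replicate block was an alternative. The others were RLE factors, library totals, no filter, DESeq2 1.42.0 and leaving out each library, where the single library left in a tissue is taken to vary as the other pair does.

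The members, gene lists and naming rule were chosen with earlier results of these data known. The rule named all members, the called and the 3 most abundant tested genes of each pathway group, the 2 most abundant of each marker list, and the 3 genes nearest in profile to Irg1, Nos2, Arg1 and Hcar2. Some genes the rule named are not reported here. Exon lengths and overlaps come from GENCODE vM21, promoters from RefSeq.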

Additional observations from a re-analysis of the deposited data

How the results depend on the processing

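Higher and lower calls over all genes numbered 178 and 37. On library gene totals they were 24 and 2, in DESeq2 210 and 153, and with the replicate block 241 and 67. Without single libraries they ran from 38 to 323 higher and from 6 to 283 lower. The median log2 fold change of all genes was 0.11, and 0.37 on library totals. The 5 higher calls in the related pathway groups were 0 on library totals, 3 with no filter, 2 with the replicate block and between 0 and 10 without single libraries. There was 1 lower call in DESeq2 and 1 with the replicate block, Qprt in both. The cause of these shifts was not tested.

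The log2 fold changes of the 6 members tested stayed positive under every alternative run. Without single libraries they ran from 8.90 to 11.88 for Irg1, from 2.09 to 3.66 for Nos2, from 0.54 to 2.54 for Ido1 and from 1.08 to 8.54 for Hcar2. Among the pathway genes named in the text, those of 6 short of the threshold turned direction without some library: Sdhb (-0.36 to 1.12), Pts (-1.15 to 0.20), Sat1 (-1.17 to 0.57), Got2 (-1.22 to 0.28), Jak1 (-1.72 to 0.03) and Atf4 (-0.03 to 0.81). Sat1 was 0.08 on library totals. Switching off the legacy form of the quasi-likelihood fit, added after the data were seen, gave 190 and 43 calls. Depth limits Ass1, Il4i1, Ido1 and the spleen levels of every member, which rest on at most 30 reads.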
